A study of Mus musculus with 3 samples.

Results

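The 8 genes described here encode proteins stored in the granules of neutrophils, and they are Mpo and Elane of the azurophil granules, Camp, Ltf, Ngp, Lcn2 and Mmp8 of the specific granules, and Mmp9 of the gelatinase granules. They were chosen by name, with earlier results of these data known, are 8 of the 19091 genes in the files, and were ordered by granule class. Each gene was measured apart in all cells, which are barcodes with 200 or more detected genes, and in the subset with 2 or more unique molecular identifiers (UMIs) each of S100a8 and S100a9, called the S100 gate. S100a8 and S100a9 encode the calprotectin subunits that fill the cytosol of neutrophils.

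Liver cells of adult C57BL/6 mice were profiled by Drop-seq, which captures cells in droplets with barcoded beads, after irreversible electroporation (IRE), an injury by electric pulses. The 3 libraries were a control, labelled as sham surgery with tissue taken after 1 day, IRE on day 1 post-injury (p.i.) and IRE on day 7 p.i. The labels give 8 pulses of 50 ms at 75 V with 1 s between pulses, while the methods of the study give a lower voltage and take control tissue from the same area of uninjured livers. Each library was pooled from 3 livers, sampled with a 4 mm punch, digested and treated to lyse red blood cells, so that there was 1 library per condition and no test across animals. All intervals are 95% intervals, exact Poisson for UMI sums, Clopper-Pearson for shares and conditional binomial for ratios, and they cover counting error only.

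Neutrophils make their granules in sequence while they mature in the bone marrow. Azurophil granules are filled first, in promyelocytes, specific granules next, in myelocytes and metamyelocytes, and gelatinase granules last, in band cells, and transcription of the early genes has largely ceased by the time a neutrophil enters the blood. Some granule genes, among them Lcn2 and Mmp9, can also be transcribed by activated neutrophils and by other cells of an injured tissue.

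The S100 gate held 501 of 10386 control cells (4.82%, 4.42 to 5.25%), 106 of 9253 cells on day 1 (1.15%, 0.939 to 1.38%) and 3407 of 5624 cells on day 7 (60.6%, 59.3 to 61.9%). These cells carried 514493, 72655 and 2061928 UMIs, with a median of 684, 545.5 and 507 UMIs per cell. All 11 neutrophil markers that neither the gate nor the 8 genes used, among them Csf3r and Cxcr2, were detected in the gate of each library and summed to 6789, 4556 and 12581 CPM, where CPM are UMIs of a gene or list per 1000000 UMIs of the same cells. A UMI of at least 1 of them was present in 82.0% of gate cells in control, 80.2% on day 1 and 92.8% on day 7. In all cells, those of the gate included, the shares were 19.6, 10.0 and 84.2%. On day 7 the gate made up 60.6% of these cells, so that its share and that of all cells were not independent. S100a8 itself was present in 25.5, 5.83 and 78.0% of cells outside the gate. The library of day 1 stood apart, since the 10 hepatocyte markers took 2.73% of the UMIs of all its cells and were present in 98.9% of them, against 0.140% and 23.1% in control and 0.0263% and 9.50% on day 7. In the gate they took 0.618, 2.5 and 0.0259% of UMIs and were present in 28.5, 99.1 and 10.6% of cells. Mitochondrial transcripts took 17.0, 23.1 and 4.24% of the UMIs in the gate and 20.5, 21.7 and 4.10% in all cells. Pairs of libraries shared 44 to 149 cell barcodes, of which 1 was in the gate of both libraries.

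In all cells, the 8 genes did not follow a common course over the 3 libraries. On day 1 every gene was lower than in control, while on day 7 Ngp, Lcn2, Mmp8 and Mmp9 were higher than in control and Mpo, Camp and Ltf were lower, while the interval of Elane included no difference. Among cells of the S100 gate, Camp and Ltf on day 7 were 70.7-fold and 24.8-fold lower than in control, Ngp was 3.31-fold lower, and Lcn2, Mmp8 and Mmp9 were within 2-fold of control. In a sum over all cells, fewer cells of a type and less RNA per cell cannot be told apart.

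**Figure D1:**
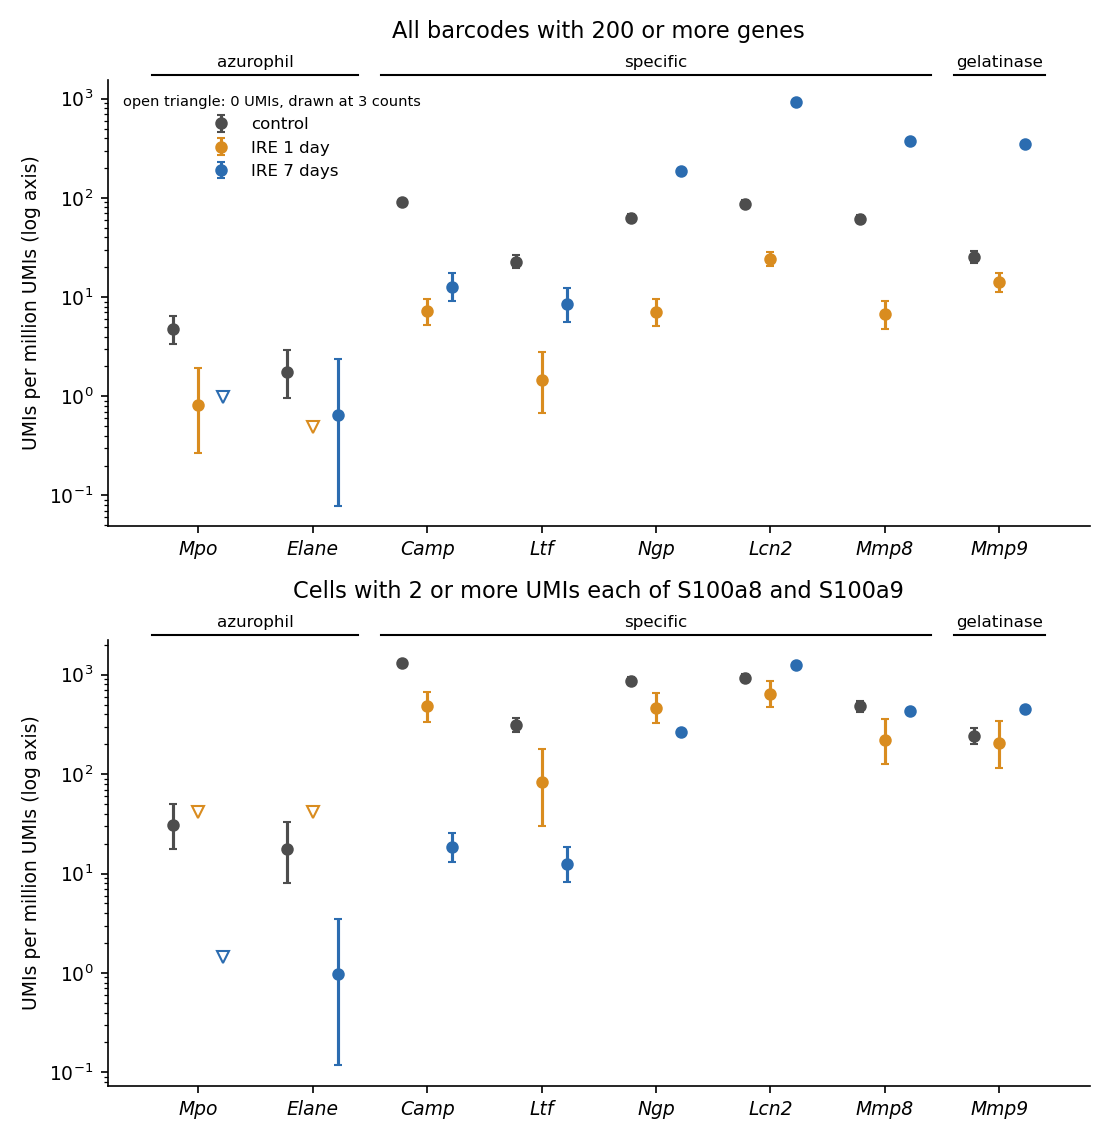
UMIs of each gene per 1000000 UMIs (log axis) in all cells (top) and in the S100 gate (bottom), by library. Points are summed UMIs with 95% Poisson bars, and open triangles mark genes with 0 UMIs, drawn at 3 counts; Camp and Ltf on day 7 sit far below control in the gate, while Lcn2 and Mmp9 sit above it.

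Mpo, myeloperoxidase, makes hypochlorous acid from hydrogen peroxide. In all cells it had 38 UMIs in control (4.74 CPM, 3.36 to 6.51) and 5 UMIs on day 1 (0.819 CPM, 0.266 to 1.91). On day 7 it had 0 UMIs, with an interval up to 1.21 CPM. Control was the highest library, and the values of the injured livers overlapped within counting error. The level on day 1 was 5.79-fold lower than in control (2.28-fold to 18.9-fold), and that on day 7 was at least 3.74-fold lower. In the S100 gate, 16 UMIs in 6 of 501 control cells gave 31.1 CPM (17.8 to 50.5). None was found in 106 gate cells on day 1, with an interval up to 50.8 CPM, so that a difference from control was not detectable at this depth. None was found either in 3407 gate cells on day 7, with intervals up to 1.79 CPM and 0.108% of cells. The level there was at least 15.5-fold lower than in control. Of the control UMIs, 22 of 38 lay outside the gate, 17 of them in 6 cells that met no marker gate.

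Elane encodes neutrophil elastase, a serine protease that degrades elastin and other matrix proteins. Its counts in all cells were 14 UMIs in control (1.75 CPM, 0.955 to 2.93) and 2 UMIs on day 7 (0.654 CPM, 0.0792 to 2.36). On day 1 it had 0 UMIs, with an interval up to 0.604 CPM. The level on day 1 was at least 2.53-fold lower than in control, and the ratio of control to day 7 was 2.67 with an interval of 0.614 to 24.2. In the gate, 9 UMIs in 6 control cells (17.5 CPM, 8.0 to 33.2) stood beside 0 UMIs on day 1, with an interval up to 50.8 CPM. On day 7, 2 cells held 2 UMIs (0.970 CPM, 0.117 to 3.50). The ratio of control to day 7 in the gate was 18.0 (3.73 to 172). With fewer than 20 UMIs in each pair of libraries in the gate, neither azurophil gene entered the counts of genes past 2-fold there.

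Both azurophil genes were thus rare in every library, and none of the 16 Mpo and 9 Elane UMIs of the control gate lay in the 299 gate cells with 3 or more UMIs over at least 2 of the neutrophil markers, a subset chosen after the data had been seen. Of the other azurophil granule genes on a fixed list, 8 of 9 were in the files. Prtn3, proteinase 3, had 14 UMIs in the control gate and 15 UMIs in the gate on day 7 (27.2 against 7.27 CPM) and was the only 1 of 5 counted genes past 2-fold there, beside 14.3% of all genes that were lower, with a ratio of 0.267 (0.120 to 0.598). The highest ratio was that of Ctsc, cathepsin C, which activates the serine proteases of these granules, at 1.53 (1.32 to 1.78). Ms4a3, a marker of granulocyte progenitors, was at 0 UMIs in the gate of both injured libraries. In the control gate it had 5 UMIs in cells with a Camp UMI and 1 UMI in the others. With 72655 UMIs in the gate on day 1, a difference from control was not detectable there. On day 1 Cd63, a membrane protein of azurophil granules that many cells carry, was the 1 of 3 counted genes past 2-fold in the gate, beside 17.4% of all genes that were lower. It stood at 110 against 515 CPM, a ratio of 0.214 (0.0913 to 0.427). In all cells, 5 of 6 counted genes were past 2-fold lower on day 1, beside 7.14% of all genes, Cd63 by the largest ratio (8.42-fold), and 1 of 6 on day 7, beside 26.3%, Ctsg, cathepsin G, which rested on 2 UMIs against 25 in control (ratio 0.210, 0.0241 to 0.840).

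The specific granule genes follow, with the promoter sequences of 4 of them, shown because their levels in the gate took different courses: far below control on day 7 (Camp and Ltf), below it (Ngp) and within 2-fold of it (Lcn2). RefSeq promoters on GRCm38.p6, from 250 bases before to 50 bases after the start of the gene, were at hand for 7 of the 8 genes, Mmp9 being the exception. The build of the count files was not settled, and the coordinates belong to the RefSeq sequences. Camp (chr9:109849407-109849706, minus strand), Ngp (chr9:110419558-110419857, plus strand) and Ltf (chr9:111019042-111019341, plus strand) lie on the same chromosome, Mmp8 (chr9:7558179-7558478, plus strand) lies elsewhere on it, and Lcn2 (chr2:32387690-32387989, minus strand) on another. Each sequence is printed 5′ to 3′ on the strand of its gene, and capitals mark matches on either strand to TTNNGNAA, a core bound by C/EBP factors, and to GAGGAA, a core bound by PU.1.
Camp: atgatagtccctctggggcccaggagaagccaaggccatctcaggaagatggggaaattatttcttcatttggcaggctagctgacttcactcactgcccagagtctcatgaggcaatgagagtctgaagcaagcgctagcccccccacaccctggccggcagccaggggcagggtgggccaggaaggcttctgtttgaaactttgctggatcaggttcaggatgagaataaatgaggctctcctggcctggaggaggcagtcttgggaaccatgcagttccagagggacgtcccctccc
Ltf: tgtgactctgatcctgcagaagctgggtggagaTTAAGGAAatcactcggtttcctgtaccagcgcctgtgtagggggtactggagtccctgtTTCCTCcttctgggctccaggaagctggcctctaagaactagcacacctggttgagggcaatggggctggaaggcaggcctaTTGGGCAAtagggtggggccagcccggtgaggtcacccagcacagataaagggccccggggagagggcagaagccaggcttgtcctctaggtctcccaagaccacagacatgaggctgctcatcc
Ngp: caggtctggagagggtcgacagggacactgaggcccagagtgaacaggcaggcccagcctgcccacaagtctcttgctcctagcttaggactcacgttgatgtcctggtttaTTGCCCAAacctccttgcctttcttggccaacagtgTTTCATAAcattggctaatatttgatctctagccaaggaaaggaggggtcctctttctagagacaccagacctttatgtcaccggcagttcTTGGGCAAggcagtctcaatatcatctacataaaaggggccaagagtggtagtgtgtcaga
Lcn2: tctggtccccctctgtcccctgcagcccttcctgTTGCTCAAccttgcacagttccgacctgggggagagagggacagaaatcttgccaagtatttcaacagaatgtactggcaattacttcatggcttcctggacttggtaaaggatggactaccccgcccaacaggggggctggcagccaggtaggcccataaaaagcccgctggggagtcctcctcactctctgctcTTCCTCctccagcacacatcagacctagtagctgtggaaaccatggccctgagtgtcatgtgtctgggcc
Camp had no match to either motif in this window. Ltf had 2 matches to TTNNGNAA, starting at -217 and -75 from the start of the gene, and 1 to GAGGAA. Ngp had 3 matches to TTNNGNAA, starting at -138, -102 and -11. Lcn2 had 1 match to each motif, starting at -216 and -20. Of the members without a printed sequence, Mmp8 had 2 matches to TTNNGNAA, and Mpo and Elane had none. To GAGGAA, Mpo had 2 matches, Elane 1 and Mmp8 1. Among all 32851 RefSeq promoters of this length, 40.7% held TTNNGNAA and 28.3% held GAGGAA, so that a match is common and is given as a description only. The letters TATAAA were found in Mmp8 alone of the 7, on the strand opposite to the gene at -3 to 3, and in 13.6% of all promoters, and none of the matches overlapped another.

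Camp encodes the precursor of the antimicrobial peptide CRAMP. In all cells it had 730 UMIs in control (91.1 CPM, 84.6 to 97.9), 44 on day 1 (7.20 CPM, 5.23 to 9.67) and 39 on day 7 (12.7 CPM, 9.07 to 17.4). Control was far above the other libraries, whose intervals overlapped, with a ratio of day 7 to day 1 of 1.77 (1.12 to 2.79). The level was 12.6-fold lower on day 1 (9.32-fold to 17.6-fold) and 7.14-fold lower on day 7 (5.18-fold to 10.1-fold). In the S100 gate the level was 1302 CPM in control (1206 to 1405), 482 on day 1 (336 to 670) and 18.4 on day 7 (13 to 25.3), so that no intervals overlapped. The level on day 7 was 70.7-fold lower than in control (50.9-fold to 101-fold) and 26.1-fold lower than on day 1 (16.0-fold to 42.5-fold).

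These levels rested on few cells. In the control gate, 36 of 501 cells held all 670 Camp UMIs, 20 of them with 10 or more UMIs each, and the 10 cells with the most UMIs held 67.2% of the total. On day 1, 3 of 106 cells held all 35 UMIs, and 1 of them held 22. On day 7 the 38 UMIs lay in 24 of 3407 cells, 18 of which had 1 UMI each and none of which had more than 7. By cells, the share with a Camp UMI was 7.19% in control (5.08 to 9.81%), 2.83% on day 1 (0.588 to 8.05%) and 0.704% on day 7 (0.452 to 1.05%). After each cell was thinned to 300 UMIs, with 4, 3 and 168 shallower gate cells left out, the shares were 5.63, 1.94 and 0.525%. In T cells, gated by their own markers and not known for granule genes, 3 of 196 control cells (1.53%), 0 of 82 cells on day 1 and 0 of 29 cells on day 7 had a Camp UMI, with median depths of 751, 500 and 436 UMIs. No 2 barcodes of the Camp cells of a library differed by a single base.

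**Figure D2:**
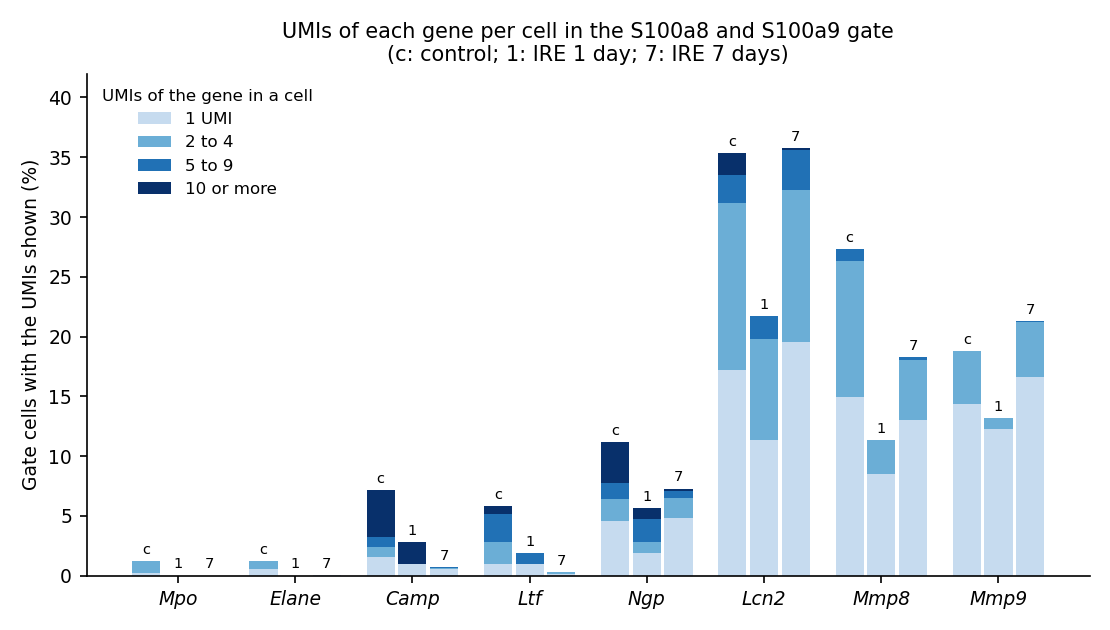
Percent of cells in the S100 gate (y axis) that had 1, 2 to 4, 5 to 9 or 10 or more UMIs of each gene, for control (c), day 1 (1) and day 7 (7). The full height of a bar is the share of gate cells with any UMI of the gene; for Camp, 20 of 501 control cells had 10 or more UMIs and none did on day 7.

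Ltf encodes lactoferrin, an iron-binding protein of the specific granules. Its counts in all cells were 182 in control (22.7 CPM, 19.5 to 26.3), 9 on day 1 (1.47 CPM, 0.674 to 2.80) and 26 on day 7 (8.50 CPM, 5.55 to 12.5), and no intervals overlapped. In the gate, Ltf stood at 313 CPM in control (266 to 365), 82.6 on day 1 (30.3 to 180, from 6 UMIs in 2 cells) and 12.6 on day 7 (8.24 to 18.5, from 26 UMIs in 11 cells). Control was the highest library and day 7 the lowest, with ratios of 0.264 on day 1 (0.0954 to 0.587) and 0.0403 on day 7 (0.0255 to 0.0612). Of the 26 UMIs on day 7, 11 came from a single cell. Ltf was present in 5.79% of gate cells in control, 1.89% on day 1 and 0.323% on day 7, and in 4.43, 0.971 and 0.309% after thinning, against 2 of 196, 0 of 82 and 0 of 29 T cells.

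Cells with Camp were compared with the other gate cells for the remaining genes. In the control gate, 27 of 36 cells with a Camp UMI (75.0%) also had an Ltf UMI, against 2 of 465 cells without Camp (0.430%). The median depth was 687 UMIs in the former and 684 UMIs in the latter. Of the 36 Camp cells, 31 had Ngp (86.1%, against 5.38% of the others) and 30 had Lcn2 (83.3%, against 31.6%), while 12 had Mmp8 (33.3%, against 26.9%) and 9 had Mmp9 (25%, against 18.3%). On day 7, 5 of 24 Camp cells had Ltf (20.8%, against 0.177%) and 17 had Ngp (70.8%, against 6.83%). These shares describe cells of 1 library each and were given no test. In the 299, 41 and 2326 gate cells with neutrophil markers, the subset named for Mpo and Elane, Camp had 250, 0 and 36 UMIs and Ltf had 90, 0 and 25, and both were past 2-fold lower on day 7 than in control there.

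The Camp cells of control (36 cells, 27354 UMIs) and of day 7 (24 cells, 12593 UMIs) were also set side by side for other genes. S100a8 stood at 83827 CPM (80431 to 87330) in control and 114190 (108364 to 120249) on day 7, and Retnlg, which encodes a secreted protein of mature neutrophils, at 3144 (2515 to 3883) and 28428 (25560 to 31531). Fcnb, ficolin B of immature granulocytes, stood at 548 CPM (307 to 904) in control and had 0 UMIs on day 7, with an interval up to 293 CPM. The intervals of these 3 genes did not overlap. Those of Mki67 and Top2a, genes of dividing cells, did, at 512 (280 to 859) and 548 CPM (307 to 904) in control and 79.4 CPM (2.01 to 442) each on day 7. Csf3r, the receptor of the growth factor G-CSF, at 73.1 (8.85 to 264) and 397 CPM (129 to 927), and Mpo, at 256 (103 to 527) and 0 CPM (up to 293), overlapped as well.

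Ngp, neutrophilic granule protein, belongs to the cystatin superfamily. In all cells it had 507 UMIs in control (63.3 CPM, 57.9 to 69.0), 43 on day 1 (7.04 CPM, 5.09 to 9.48) and 565 on day 7 (185 CPM, 170 to 201). The level on day 7 was the highest, 2.92-fold above control (2.59-fold to 3.30-fold). In the gate control was the highest library instead, with 873 CPM in control (794 to 957), 468 on day 1 (324 to 654) and 263 on day 7 (242 to 286). The level on day 7 was 3.31-fold lower than in control (2.92-fold to 3.76-fold). Ngp was present in 56 control gate cells (11.2%, 8.55 to 14.3%), 6 cells on day 1 (5.66%, 2.11 to 11.9%) and 248 cells on day 7 (7.28%, 6.43 to 8.20%), so that the shares of control and day 7 differed less than the levels. Of the cells with Ngp, 41.1% in control and 65.7% on day 7 had 1 UMI, and the cell with the most had 35 UMIs in control and 33 UMIs on day 7. Thinned shares were 7.44, 4.85 and 5.06%, with 2 of 196, 0 of 82 and 1 of 29 T cells before thinning. By cells with a UMI in place of UMIs, the ratio of day 7 to control was 0.651, which is not past 2-fold.

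Lcn2 encodes lipocalin 2, which binds bacterial siderophores. It had 702 UMIs in all control cells (87.6 CPM, 81.2 to 94.3), 149 on day 1 (24.4 CPM, 20.6 to 28.6) and 2846 on day 7 (930 CPM, 897 to 965). The libraries were well apart, with a level 3.59-fold lower on day 1 (3.0-fold to 4.31-fold) and 10.6-fold higher on day 7 (9.78-fold to 11.6-fold) than in control. In the gate the levels were closer, at 921 CPM in control (840 to 1008), 647 on day 1 (475 to 860) and 1247 on day 7 (1199 to 1296). The intervals of day 1 and control overlapped, while the ratio of day 1 to control was 0.702 (0.509 to 0.949). Over the alternatives it ranged from 0.426, after thinning, to 1.54, with 500 or more genes per barcode. The ratio of day 7 to control was 1.35 (1.23 to 1.5). Among gate cells in no other marker gate this ratio was 0.867 (0.773 to 0.976), and after thinning 1.02 (0.881 to 1.19). Lcn2 was found in 35.3% of control gate cells (31.1 to 39.7%), 21.7% on day 1 (14.3 to 30.8%) and 35.8% on day 7 (34.2 to 37.4%), and in 23.3, 13.6 and 25.5% after thinning. In T cells, it was present in 3 of 196 (1.53%), 0 of 82 and 2 of 29 cells (6.90%).

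Mmp8 encodes neutrophil collagenase, which cleaves fibrillar collagens. Its counts in all cells were 491 in control (61.3 CPM, 56.0 to 66.9), 41 on day 1 (6.71 CPM, 4.82 to 9.11) and 1144 on day 7 (374 CPM, 353 to 396). On day 7 the level was 6.10-fold higher than in control (5.49-fold to 6.80-fold) and on day 1 it was 9.13-fold lower (6.63-fold to 12.9-fold). In the gate, control at 482 CPM (424 to 546) and day 7 at 436 CPM (408 to 466) overlapped, with a ratio of 0.906 (0.786 to 1.05). Over the alternatives this ratio ranged from 0.595, in gate cells in no other marker gate, to 1.88, with a gate of 1 UMI each. Day 1 was lower than both at 220 CPM (126 to 358, from 16 UMIs in 12 cells). The share of gate cells with a UMI was 27.3% in control (23.5 to 31.5%), 11.3% on day 1 (5.99 to 18.9%) and 18.3% on day 7 (17.0 to 19.6%), and 16.3, 7.77 and 12.4% after thinning, against 0 of 196, 0 of 82 and 1 of 29 T cells.

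Among the other specific granule genes on the fixed list, 5 of 7 counted genes were past 2-fold lower in all cells on day 1, beside 7.14% of all genes, and 5 of 7 past 2-fold higher on day 7, beside 8.79%. The largest ratio on day 7 was that of Chi3l3, a chitinase-like protein with near-identical paralogs, whose reads may be split between copies, at 14.6 in all cells (13.4 to 16.0) and 5.66 in the gate (4.64 to 6.97). The lowest on day 7 in the gate was Fcnb, with 19 UMIs in control and 6 UMIs on day 7 (36.9 against 2.91 CPM, ratio 0.0788, 0.0258 to 0.205), and in all cells Cybb, the catalytic subunit of the phagocyte NADPH oxidase, at 0.581 (0.543 to 0.621). Chi3l3 and Fcnb were the only genes past 2-fold among the 7 of the list counted in the gate on day 7. Over all genes, 13.2% were higher there and 14.3% lower. On day 1, with a 0 set to 3 counts, the lowest ratio in all cells was that of Chi3l3 (0.149, 0.115 to 0.190). In the gate it was that of Cd177, a surface protein that binds proteinase 3. Cd177 had 1 UMI there against 29 in control (0.244, 0.00598 to 1.47). Genes at 0 UMIs on day 1, Fcnb in all cells and Pglyrp1 and Fcnb in the gate, may lie lower. Pglyrp1 had 14 UMIs in control gate cells with a Camp UMI and 46 UMIs in the other control gate cells. Hp, haptoglobin, which hepatocytes also make, had the highest ratio in all cells on day 1 (1.56, 1.47 to 1.65).

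Mmp9 encodes gelatinase B, which cleaves denatured collagen and basement membrane collagen. In all cells it had 205 UMIs in control (25.6 CPM, 22.2 to 29.3), 86 on day 1 (14.1 CPM, 11.3 to 17.4) and 1065 on day 7 (348 CPM, 328 to 370). The level on day 7 was 13.6-fold higher than in control (11.7-fold to 15.9-fold), and that on day 1 was 1.82-fold lower (1.41-fold to 2.37-fold). In the gate, Mmp9 stood at 243 CPM in control (202 to 289), 206 on day 1 (116 to 341, from 15 UMIs in 14 cells) and 453 on day 7 (424 to 483). Control and day 1 overlapped, and day 7 was above both, with ratios of 1.86 to control (1.55 to 2.27) and 2.19 to day 1 (1.32 to 3.94). Most Mmp9 UMIs were alone in their cell, since 76.6% of positive control gate cells and 78.2% of those on day 7 had 1 UMI. The share of gate cells with a UMI was 18.8% in control (15.4 to 22.5%), 13.2% on day 1 (7.41 to 21.2%) and 21.3% on day 7 (19.9 to 22.7%), and 9.46, 7.77 and 13.3% after thinning, against 5 of 196 (2.55%), 4 of 82 (4.88%) and 1 of 29 T cells (3.45%).

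In the gate, 5 of 6 counted genes of the other gelatinase granule and secretory vesicle genes were past 2-fold higher on day 7, beside 13.2% of all genes, and none lower, beside 14.3%, led by Slc11a1, a divalent metal transporter of phagocytes, at 466 against 105 CPM (ratio 4.44, 3.37 to 5.95). Slc11a1 also had the highest ratio in the gate on day 1 (1.70, 0.853 to 3.17), and Itgam, the alpha chain of the integrin Mac-1, the lowest (0.708, 0.377 to 1.23). There 0 of 5 counted genes were past 2-fold, beside 9.39% of all genes that were higher and 17.4% lower. In all cells, Adam8, a surface metalloprotease, led on day 7 with a ratio of 7.96 (7.09 to 8.95), and all 6 counted genes were past 2-fold higher, beside 8.79% of all genes. On day 1 3 of 6 counted genes were past 2-fold lower, beside 7.14% of all genes, Itgam by the largest ratio (0.172, 0.146 to 0.200), and Fpr1, a receptor for formyl peptides, had the highest ratio (1.69).

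Counts of genes past 2-fold were read against the same counts over all genes with 20 or more UMIs in both libraries together. In all cells on day 1 against control, 6 of 7 counted members were 2-fold or more lower (Mpo, Camp, Ltf, Ngp, Lcn2 and Mmp8), beside 7.14% of 12988 genes, and 0 were higher, beside 13.6%. Between day 7 and control, 4 of 7 were higher (Ngp, Lcn2, Mmp8 and Mmp9), beside 8.79% of 12074 genes, and 3 lower (Mpo, Camp and Ltf), beside 26.3%. On day 7 against day 1, 5 of 6 were higher (Ltf, Ngp, Lcn2, Mmp8 and Mmp9), beside 11.3% of 12116 genes, and 0 lower, beside 31.8%. The median log2 ratio of the counted members was -3.17 on day 1 against control, beside 0.05 over all genes. On day 7 against control it was 2.08 over the 6 members with UMIs in both libraries, beside -0.26 over all genes. With the 0 of Mpo set to 3 counts it was 1.55, beside -0.29. On day 7 against day 1 it was 4.67, beside -0.29.

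Within the gate, with S100a8 and S100a9 themselves left out, 3 of 6 counted members on day 1 were 2-fold or more lower than in control (Camp, Ltf and Mmp8), beside 17.4% of 4100 genes, and 0 were higher, beside 9.39%. On day 7 against control 3 of 6 were lower (Camp, Ltf and Ngp), beside 14.3% of 8104 genes, and 0 higher, beside 13.2%. From day 1 to day 7, 1 of 6 was higher (Mmp9), beside 16.6% of 7355 genes, and 2 lower (Camp and Ltf), beside 14.7%. The median log2 ratio of the 6 counted members was -1.01 on day 1 and -0.94 on day 7 against control, beside -0.18 and -0.0028 over all genes, and 0.06 on day 7 against day 1, beside 0.08. The comparisons share libraries and are not independent of each other. The counts on day 1 rested on 106 cells, and with barcodes of 500 or more genes, of which 17 were left in the gate, 0 members were past 2-fold lower than in control and the Camp ratio was 1.19 (0.728 to 1.84). The share over all genes was not taken for these barcodes.

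The gate was also divided by the sum of S100a8 and S100a9 UMIs in each cell. In cells with 40 or more of these UMIs (202, 13 and 848 cells), Camp stood at 3803 CPM in control (3517 to 4106), 2902 on day 1 (2021 to 4036) and 66.1 on day 7 (45.8 to 92.4). For Ltf, the levels in these cells were 913 (776 to 1067), 497 (183 to 1083) and 44.7 CPM (28.3 to 67.1), and for Ngp 2547 (2314 to 2797), 2736 (1883 to 3842) and 894 CPM (814 to 980). Day 7 was below both other libraries for these 3 genes. On day 1 the Camp UMIs lay in 3 of the 13 cells, those of Ltf in 2 and those of Ngp in 5, and the intervals do not cover such clustering. Lcn2 was at 2169 (1954 to 2401), 2404 (1610 to 3453) and 3130 CPM (2979 to 3287), and Mmp9 at 593 (484 to 720), 415 (135 to 967) and 931 CPM (850 to 1018), so that day 7 was above control for both and overlapped day 1. Mmp8 overlapped in all 3 libraries, at 1047, 912 and 881 CPM. The class has no upper limit, and its neutrophil markers summed to 15020, 8291 and 29717 CPM. In control, 654 of 670 Camp UMIs, 157 of 161 Ltf UMIs and 438 of 449 Ngp UMIs came from this class of cells, and 373 of 474 Lcn2 UMIs did. In control cells with 4 to 9 of the S100 UMIs, the neutrophil markers summed to 626 CPM, and on day 7 to 4036 CPM. Per 1000 UMIs of S100a8 and S100a9 in the gate, Camp had 31.1 UMIs in control, 17.4 on day 1 and 0.375 on day 7, and Lcn2 had 22, 23.4 and 25.3.

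**Figure D3:**
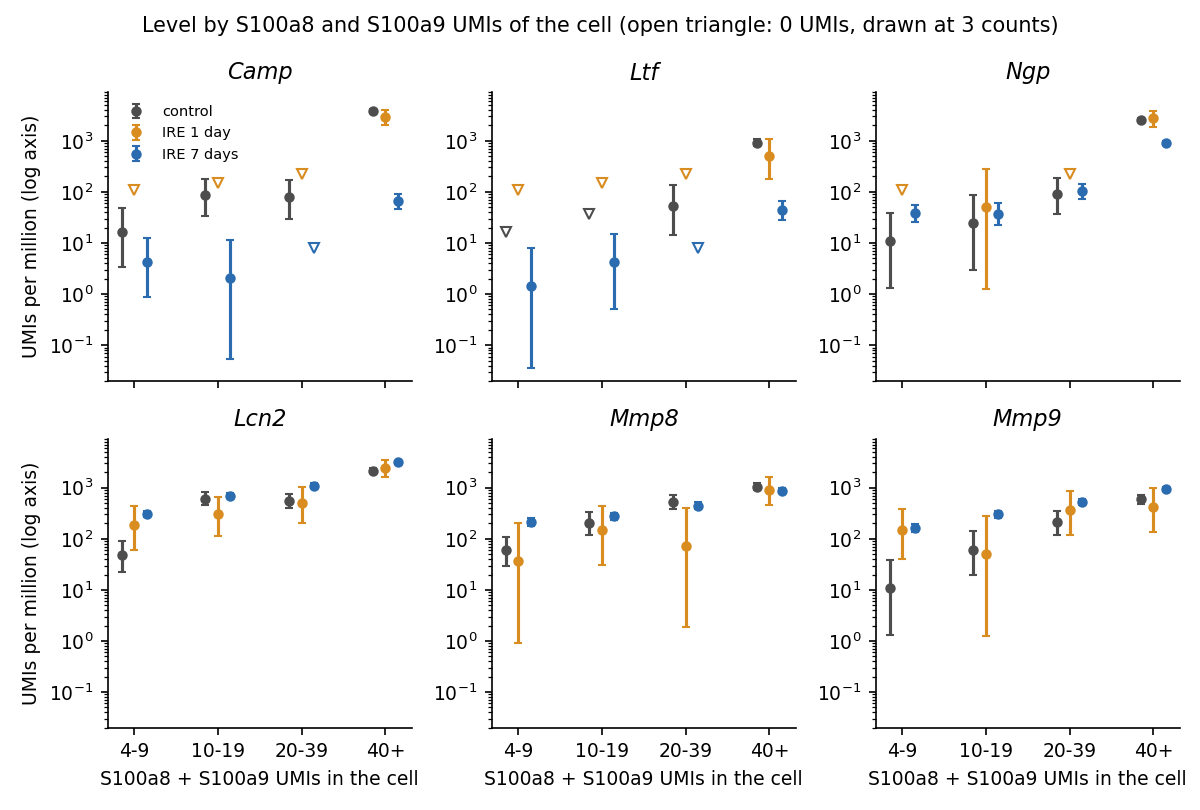
UMIs CPM (log axis) of 6 genes in gate cells grouped by their summed S100a8 and S100a9 UMIs (x axis), by library, with 95% Poisson bars and open triangles for 0 UMIs, drawn at 3 counts. In cells with 40 or more of these UMIs, Camp was at 3803 CPM in control and 66.1 on day 7, and Lcn2 at 2169 and 3130.

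The number of the 8 genes detected together in a gate cell was also counted. At least 1 was found in 55.5% of control cells, 36.8% on day 1 and 54.3% on day 7, and 4 or more in 7.19, 2.83 and 1.38%. The most in a single cell was 6 genes, in 6 control cells and in 4 cells on day 7, and 5 genes on day 1. Markers of other cells differed in the gate beside the granule genes. The 6 genes of cell division, all detected in control and on day 7, summed to 742 CPM in control, 454 on day 1, where Cdk1 was at 0 UMIs, and 62.1 on day 7. On day 7, 6 of 6 were past 2-fold lower than in control, beside 14.3% of all genes. The 6 mast cell, basophil and eosinophil genes in the files summed to 52.5, 0 and 2.42 CPM, with Prg2 at 0 UMIs in control, all 6 at 0 UMIs on day 1, and Mcpt4, Tpsb2 and Prg2 at 0 UMIs on day 7. Their part in the levels of Mpo, Elane, Camp and Ltf was not tested. Gate cells that also met a Kupffer cell marker gate made up 29.3, 39.6 and 7.90%, and those with endothelial markers 11.0, 22.6 and 0.910%. Overlap was highest on day 7 for monocyte markers, at 7.98, 0 and 15.3%. The same held for the wound macrophage markers Arg1, Ccl2 and Ccl7, at 0.998, 0.943 and 19.1%. Gate cells in no other marker gate (262, 51 and 2154 cells) held 590, 13 and 35 Camp UMIs, with a ratio of day 7 to control past 2-fold in the same direction.

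The S100 gate held 6.42% of all cell UMIs in control, 1.19% on day 1 and 67.4% on day 7, and the genes differed in the share of their UMIs that lay in it. In control, 91.8% of Camp, 88.5% of Ltf and 88.6% of Ngp UMIs lay in the gate, against 67.5% of Lcn2, 61.0% of Mmp9 and 50.5% of Mmp8. On day 7 the shares were closer, at 97.4% for Camp, 100% for Ltf, 96.1% for Ngp, 90.3% for Lcn2, 87.7% for Mmp9 and 78.7% for Mmp8. Mmp8 had 75 UMIs in 68 of 621 cells with monocyte markers in control (169 CPM), where 0 of 196 T cells had a UMI, at median depths of 612 and 751 UMIs. On day 7 Mmp8 stood at 422 CPM (331 to 530) in 383 cells with the wound macrophage markers Arg1, Ccl2 and Ccl7, beside 436 CPM in the S100 gate, and at 262 (179 to 370) in cells with monocyte markers. In the same wound macrophage gate Ngp had 1 UMI (5.70 CPM), Lcn2 245 CPM (178 to 330) and Mmp9 85.6 (47.9 to 141), while Camp and Ltf had none. Lcn2 on day 7 was at 226 to 245 CPM in the Kupffer cell, monocyte and wound macrophage gates, and at 154 (18.6 to 556) in T cells. The 3 cells with cholangiocyte markers on day 7 held 6 Lcn2 UMIs (1605 CPM, 589 to 3494). On day 1, 31.5% of Lcn2 and 17.4% of Mmp9 UMIs lay in the gate, and the rest were spread over cells of all larger gates.

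**Figure D4:**
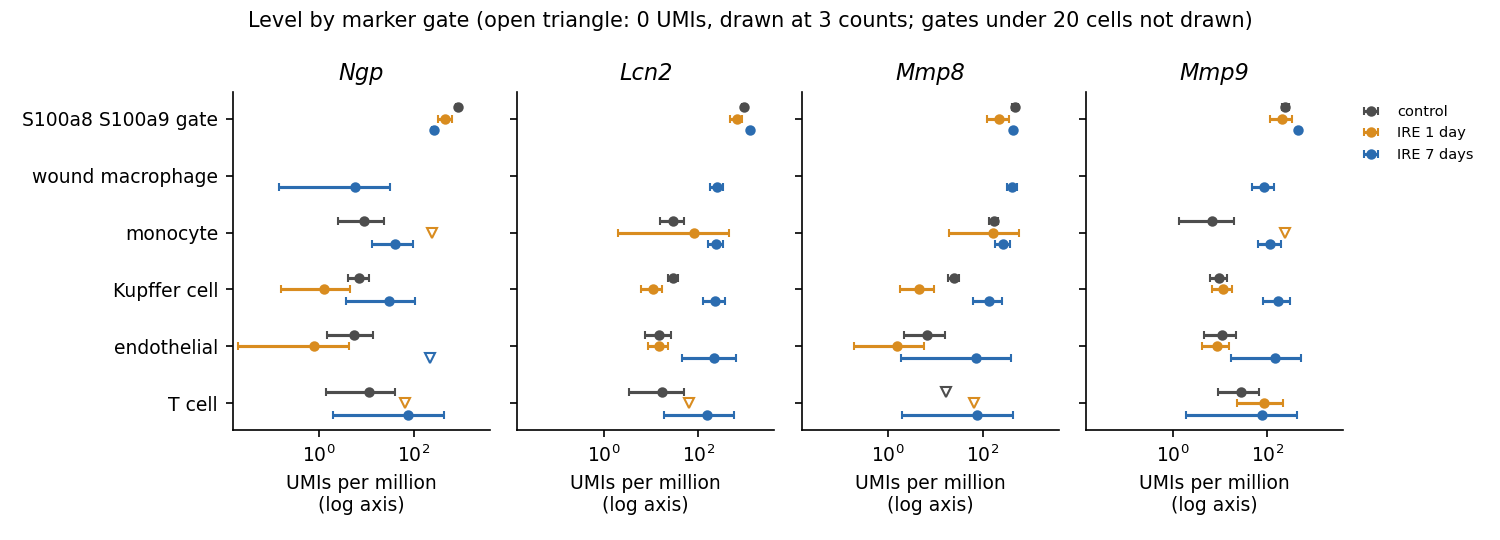
UMIs CPM (log axis) of 4 genes in the S100 gate and in cells gated by markers of other types, by library, with 95% Poisson bars and open triangles for 0 UMIs, drawn at 3 counts. On day 7 Mmp8 stood at 422 CPM in the wound macrophage gate and 436 in the S100 gate, while Ngp stood at 5.70 and 263.

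Genes with the pattern most like each member were sought over 19 points, each a marker gate of a library with 20000 or more UMIs, by Pearson's r of log2(UMIs CPM + 10), as a description in which points of a library share its depth and free RNA. Camp and Ltf were most like each other (r = 0.99), and both were next most like Prok2 (0.86 and 0.88), a chemokine-like protein, and Ngp (0.82 and 0.84). Ngp was most like S100a9 (0.91), Prok2 (0.90) and BC100530 (0.90). Lcn2 was most like S100a9 (0.96), Gm5483 (0.96) and Il1f9 (0.93), a cytokine of the interleukin-1 family. The S100 gate was set by S100a8 and S100a9, and the other gates left its cells out. The likeness of Ngp and Lcn2 to S100a9 was thus partly built in. BC100530 and Gm5483 belong to a family of similar stefin genes, among which reads may be split. Mmp8 was most like 1810033B17Rik (0.96), Ccr1 (0.95), a chemokine receptor, and Clec5a (0.95), a lectin receptor of myeloid cells. Mmp9 was most like Slc2a3 (0.92), a glucose transporter, Gm16556 (0.88) and Gm5483 (0.85). Among the members, Camp and Mmp9 were the least alike pair (0.47).

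Genes that act on granule proteins differed in direction among themselves. Slpi, an inhibitor of elastase and cathepsin G, stood in the gate at 552 CPM in control, 564 on day 1 and 1649 on day 7, a ratio of 2.99 on day 7 (2.65 to 3.38), and in all cells its ratio on day 7 was 12.7 (11.8 to 13.6). Serpinb1a, an intracellular inhibitor of the same proteases, was lower in the gate on day 7, with 18.9 against 54.4 CPM (ratio 0.348, 0.208 to 0.586). In all, 2 of 4 counted inhibitors and receptors were past 2-fold higher in the gate on day 7, beside 13.2% of all genes, and 1 lower, beside 14.3%. On day 1, 0 of 3 were higher there, beside 9.39%, and 1 was lower, beside 17.4%, Lrp1, a receptor that takes up protease complexes (0.388, 0.103 to 1.04). In all cells on day 1, 2 of 5 were past 2-fold lower, beside 7.14% of all genes. Timp1, an inhibitor of metalloproteases, had 3 UMIs against 283 in control (ratio 0.0139, 0.00285 to 0.0411), and Slc22a17, a receptor of lipocalin 2, had the highest ratio (1.52). On day 7 2 of 5 were past 2-fold higher in all cells, beside 8.79% of all genes, and 1 lower, beside 26.3%, Slc22a17 (0.327, 0.0841 to 0.923). Of the regulators of granule genes, 3 of 4 were in the files and Cebpa was the only 1 counted in the gate, with 19 UMIs in control, 1 UMI on day 1 and 20 UMIs on day 7 (36.9, 13.8 and 9.70 CPM), a ratio on day 7 of 0.263 (0.133 to 0.520) and on day 1 of 0.373 (0.00897 to 2.34). In all cells the ratio of Cebpa was 0.989 on day 1, where Gfi1 stood at 1.09, and 0.341 on day 7 (0.236 to 0.479).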

How the data were processed

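Liver cells were profiled in 3 libraries. The authors aligned reads with STAR, version 2.5.2a per the submitters' processing notes, and deposited raw counts of UMIs per gene and barcode, made with DigitalExpression from reads in sense to coding or untranslated exon bases (per the file headers). The notes name the human build hg19, while the gene symbols are those of mouse, so that the build was not settled. The headers name a minimum of 200 genes per barcode, but the files hold barcodes with 11 or more. Barcodes under 200 genes were left out, and doublets were kept; leaving out the 5% of cells with the most UMIs was an alternative. Depth per library was 8013800, 6107866 and 3058967 UMIs in cells.

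UMIs were summed per library and gate and given as CPM (Python 3.11.15, numpy 2.4.6, scipy 1.17.1). A gene was past 2-fold at 20 or more UMIs in both libraries together, with a 0 set to 3 counts. Other marker gates took cells outside the S100 gate with 3 or more UMIs over at least 2 genes of a list; hepatocyte markers at 10% of UMIs made a gate of their own. Shares were also taken after thinning to 300 UMIs (1 draw, seed 1). Named were all members, the list genes with the highest and lowest ratio at each time against control, and the 3 genes most like each member with 100 or more UMIs. With 1 library per condition no test was made. Calls and intervals were tested on simulated Poisson counts, which do not hold the clustering of UMIs in few cells. The members and lists were chosen with earlier results of these data known, and the alternatives by positive cells and by neutrophil markers were added after the data were seen.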

Additional observations from a re-analysis of the deposited data

Results flagged for a closer look

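Barcodes under 200 genes entered no comparison except the alternative with every barcode, and 4 of the genes had a level there on day 7 whose interval lay above that of control. In these barcodes, which held 2018774 UMIs in control and 1521054 UMIs on day 7, Lcn2 stood at 1752 CPM against 131 in control, Mmp9 at 778 against 62.4, Mmp8 at 516 against 111 and Ngp at 279 against 66.4. Camp was lower there, at 13.8 against 71.8 CPM. Of the barcodes under 200 genes, 4324 on day 7, 57 on day 1 and 384 in control had 2 or more UMIs each of S100a8 and S100a9, and in these Camp stood at 20.6 CPM on day 7 and 924 in control. In the same barcodes Ngp (389 against 840 CPM) and Mmp8 (638 against 1320) were lower on day 7, and Lcn2 (2395 against 1602) and Mmp9 (997 against 734) were higher.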

How the results depend on the processing

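No paired analysis was possible because each condition had 1 library, and no library could be left out. In all cells, the counts of members past 2-fold stayed within 1.5 times under every alternative, except that with 500 or more genes per barcode 1 member (Camp) was lower on day 7 than on day 1. In the gate, 2 or 3 members were lower on day 7 than in control under each alternative except a minimum of 10 UMIs, where 5 were (Mpo and Elane added); the Camp ratio ranged from 0.00579 to 0.0980. Higher than control on day 7 were 1 member (Mmp9) with 500 or more genes or at most 20% mitochondrial UMIs, and 2 with a gate of 1 UMI each. The gate on day 1 was the least settled (106 cells). Lower than control on day 1 were 0 members with 500 or more genes, where the Camp ratio was 1.19, 5 with at most 20% mitochondrial UMIs or with neutrophil markers required, and 1 per UMI of S100a8 and S100a9. On day 7 against day 1, 2 members were higher with every barcode, without the 5% of cells with the most UMIs or with neutrophil markers required, 3 with at most 20% mitochondrial UMIs or a gate of 1 UMI each, and 0 with 500 or more genes, with either reduced denominator, per S100 UMI or by positive cells. In the same comparison 1 member was lower with at most 20% mitochondrial UMIs, a minimum of 50 UMIs or by positive cells, and 0 with neutrophil markers required. The share of all genes past 2-fold was not taken under these alternatives. These counts therefore describe the calls of the members and do not set them against other genes. The causes were not tested. Of 437 member ratios recomputed, 290 stayed inside their first interval, 146 lay outside it and 1 was reversed (Camp, above). In the gate, Ngp on day 7 against day 1 was at 0.563 and, with neutrophil markers required, at 2.28 (0.972 to 7.06), and Lcn2 on day 7 against control at 1.35 and, in no other marker gate, at 0.867.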
